A study of Mus musculus with 87 samples.

Results

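The replication-dependent histone genes were taken as the protein-coding genes whose GENCODE M21 symbol begins with Hist1h, Hist2h, Hist3h or Hist4h. The rule found 64 genes among the 43346 Ensembl genes of the deposited tables. They fell into 4 genomic clusters, with 52 genes in Hist1 on chromosome 13, 9 in Hist2 on chromosome 3, 2 in Hist3 on chromosome 11 and 1 in Hist4 on chromosome 6. By product, 6 encoded the linker histone H1, 18 encoded H2A, 15 H2B, 12 H3 and 13 H4. Their RNA was followed in 64 RNA-seq libraries of mouse embryonic tissue, each from FVB embryos at embryonic day 11.5. The tissues came from 7 lines (B2 to B8), in each of which a boundary between topologically associating domains, the stretches of chromosome that fold on themselves, had been deleted with CRISPR/Cas9. Homozygous embryos and wild-type embryos were both sampled in B2 lung (6 homozygous and 6 wild-type libraries) and B2 heart (4 and 4). In B3 face, B3 heart, B4 gut, B4 midbrain, B5 face, B5 heart, B6 face, B7 face, B8 forebrain and B8 neural tube there were 2 homozygous and 2 wild-type libraries each. B6 heart and B7 heart held 2 homozygous libraries each and, lacking wild-type littermate hearts, were set against 8 wild-type hearts from lines B2, B3 and B5. Each library is named by the code that the labels give it (A21, E5420-07). Homozygous and wild-type embryos shared the FVB background and differed by the deletion, and every tissue was dissected whole, so that each library mixes cell types.

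Replication-dependent histone genes supply the core histones H2A, H2B, H3 and H4, around which DNA is wrapped in the nucleosome, and the linker histone H1, which binds the DNA between nucleosomes. They are transcribed mainly in S phase, when new chromatin is packed behind the replication fork. Their messenger RNAs have no introns and, unlike other messenger RNAs, no poly(A) tail, and end a few bases past a short hairpin, the stem-loop, which is bound by the protein Slbp and is trimmed with the help of the U7 small ribonucleoprotein. RNA protocols that select molecules by the poly(A) tail therefore recover few of these transcripts. Some members are known to make polyadenylated RNA, which in members with the hairpin extends past it. Hist1h1c, Hist1h2bc and Hist2h2be were listed here as members with polyadenylated RNA, although no hairpin was found for Hist2h2be (below). The sources used here do not give the library kit, the selection of RNA or the use of strand for these libraries.

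The hairpin is the sequence on which the members can be compared with all other genes, so it was searched for in the mm10 genome in the 150 bases after each annotated stop codon. A 16-base element with 6 base pairs and a 4-base loop was present in 62 of 64 members (96.9%) and in 9 of 21600 other protein-coding genes (0.0417%). The most common form was shared by 38 members of the H1, H2A, H2B and H3 families. Another form was carried by 8 H4 members and by no member of another family. The sites of members that the results below turn on are printed here 5′ to 3′, 26 bases each, with the element, or the best match to it, in capitals.
Hist1h4n (H4, chr13:21831793-21831818, minus strand): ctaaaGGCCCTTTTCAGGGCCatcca
Hist1h4d (H4, chr13:23581945-23581970, plus strand): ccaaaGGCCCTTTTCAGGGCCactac
Hist1h1a (H1, chr13:23764387-23764412, plus strand): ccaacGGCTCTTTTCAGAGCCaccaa
Hist1h1c (H1, chr13:23739507-23739532, plus strand): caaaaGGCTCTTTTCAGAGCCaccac
Hist1h2bc (H2B, chr13:23684642-23684667, plus strand): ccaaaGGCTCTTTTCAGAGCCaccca
Hist1h2bk (H2B, chr13:22036295-22036320, plus strand): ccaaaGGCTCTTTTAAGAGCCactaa
Hist3h2ba (H2B, chr11:58949344-58949369, plus strand): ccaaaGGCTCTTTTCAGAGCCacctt
Hist2h2be (H2B, chr3:96221576-96221601, plus strand, no element): cccttTGATCTTTTAAAGTCTctttt
The 2 members without the element were Hist1h2an, whose best site matched 15 of its 16 bases, and Hist2h2be, whose best site matched 9 of 16. The annotated transcripts of 23 members ran more than 100 bases past the hairpin, among them Hist1h1c by 840 bases, Hist1h4d by 770 bases and Hist1h2bc by 692 bases. Sequence was also shared between members: for 25 of 64 members most 100-base windows of the transcript occurred in another gene as well, and 7 members had no shared window. Counts of near-identical members such as Hist1h2ao and Hist1h2ap, which share 92.7% of the windows of Hist1h2ao, are therefore uncertain one by one.

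Promoters were matched for 58 of 64 members in RefSeq (GRCm38.p6), as the 250 bases before the transcript start and 50 after it. The letters CCAAT occurred on either strand in 49 of 58 members (84.5%) and in 37.4% of 32851 promoters of all genes. They were in every matched promoter of the H1, H2A, H2B and H3 families and in 3 of 12 of the H4 family. The letters TATAAA occurred in 35 of 58 (60.3%) and in 13.6% of all promoters. The octamer ATTTGCAT was in 7 of 17 H2A and 4 of 13 H2B promoters, in none of the other 3 families, and in 1.74% of all promoters. The promoter of Hist1h2bk, which is among the 10 members with the highest mean level, is shown because it faces the H2A gene Hist1h2ah across a shared stretch and carries all 3 motifs, in capitals on either strand (chr13:22035571-22035870, plus strand).
Hist1h2bk: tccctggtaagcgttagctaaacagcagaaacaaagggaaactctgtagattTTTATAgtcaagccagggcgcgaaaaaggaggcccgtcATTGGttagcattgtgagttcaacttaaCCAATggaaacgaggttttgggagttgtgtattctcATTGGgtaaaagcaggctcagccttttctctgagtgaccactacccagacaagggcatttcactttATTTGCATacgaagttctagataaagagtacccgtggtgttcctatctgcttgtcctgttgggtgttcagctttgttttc

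Libraries held 8391553 to 31793441 counts on genes, with a median of 21393964. Levels of a gene in different libraries are given as CPM, which are counts relative to the library total after TMM scaling across all 64 libraries, and levels of different genes as TPM, which also divide by transcript length. The effective length that RSEM used was a median of 1.32 times longer, over the members, in the lungs other than E5420-07 and E5420-09 than in the other tissues. Libraries are therefore compared by CPM. A few libraries stood apart. Among the wild-type lungs, E5420-07 had 160 CPM of the mitochondrial gene mt-Co1, against 4988 to 5742 CPM in the 10 lungs other than E5420-07 and E5420-09, and E5420-09 was the shallowest library. The homozygous B5 heart A21 had a summed 554 CPM of the face markers, against at most 177 CPM in the other hearts, and the homozygous B4 midbrain A39 had 458 CPM of the forebrain markers, against 120 to 145 CPM in the other midbrains. All 7 face markers and all 7 heart markers had a higher median in the tissue of their label than in the other libraries. In lungs, Sox9 and Id2 had lower medians (39 and 42.6 CPM) than in the other libraries (98.6 and 56.7 CPM). In guts, Shh had a median of 12.6 CPM, against 14.9 CPM elsewhere. The other listed markers of lung and gut had higher medians in their own tissue. The distal lung marker Sftpc was low in lungs (0.522 to 11 CPM), though its median of 4.13 CPM was above that elsewhere. The intestinal marker Cdh17 was no higher in guts (0.714 to 0.814 CPM) than in some other libraries. The motor neuron progenitor marker Olig2 was low in neural tubes (0.775 to 3.77 CPM). No replicate pair held identical values.

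The level of the family set lung apart from every other tissue. In lung the summed level of the 64 members ran from 13721 to 78922 CPM with a median of 22052 CPM (n = 12), and in the 52 libraries of other tissues from 58.7 to 212 CPM with a median of 119 CPM. In the lungs without E5420-07 and E5420-09 the sum was 22375 ± 1392 CPM (SD, n = 10), with a range of 20721 to 24618 CPM. These values did not overlap with those of the other tissues, and the ratio of the medians was 185 on the CPM scale and 86.8 on the TPM scale. As a share of all gene counts, the members took 1.88% to 2.26% in those 10 lungs, 5.34% in E5420-07 and 0.17% in E5420-09, and 0.00679% to 0.0247% in the other tissues. The level of E5420-09 on the CPM scale rests on a TMM factor of 0.1236, which raises it above its share of counts.

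**Figure D1:**
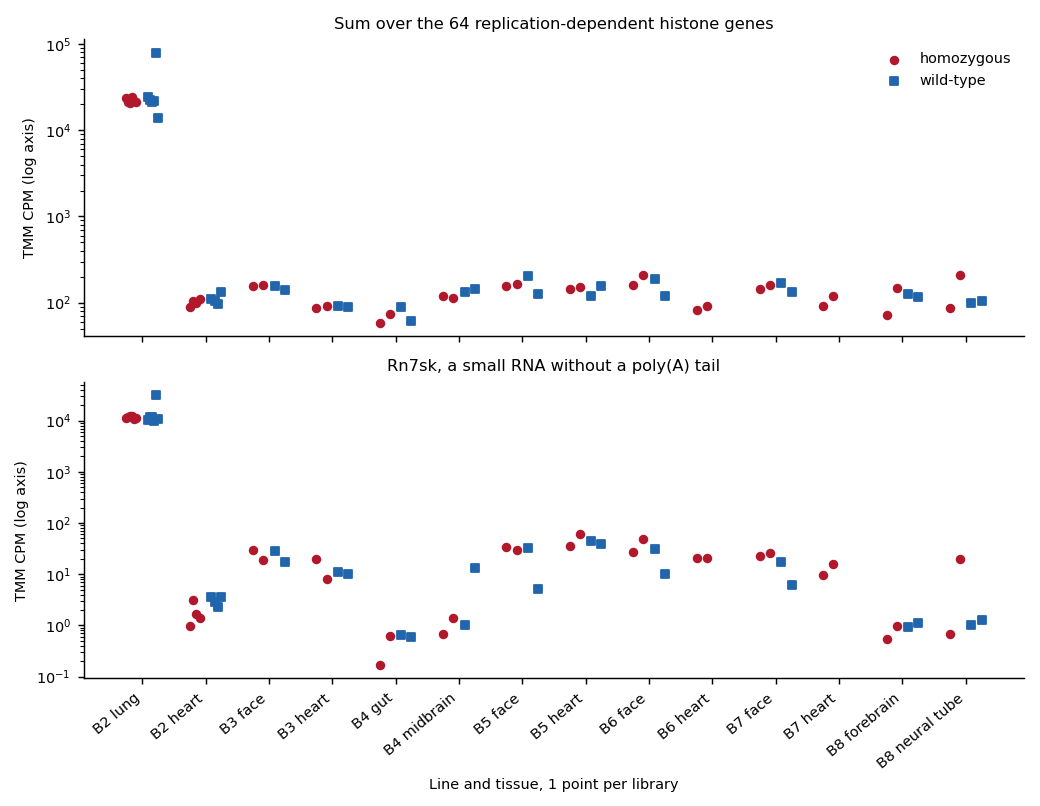
Summed level of the 64 histone members (top) and level of the small nuclear RNA Rn7sk (bottom), both in TMM-scaled CPM on log axes, with 1 point per library grouped by line, tissue and genotype. Lungs sit between 13721 and 78922 CPM for the members, above every other library (58.7 to 212 CPM), and the same libraries are high for Rn7sk.

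Hist1h4n, an H4 gene, had the highest mean TPM over all libraries. It was at 796 to 989 CPM in the 10 lungs (median 846) and at 0.32 to 6.68 CPM in the other tissues (median 1.49). Hist1h4d, also H4, was at 693 to 836 CPM in the 10 lungs (median 725) and at 0.097 to 5.95 CPM in the other tissues (median 1.13). Hist1h2bk, an H2B gene, was at 706 to 887 CPM in the 10 lungs (median 753) and at 0.88 to 6.2 CPM elsewhere (median 2.80). For these 3 genes no lung overlapped with a library of another tissue. The other 7 of the 10 members with the highest mean TPM were Hist1h4h, Hist1h4k, Hist1h4f and Hist1h4c (H4), Hist1h2bg (H2B), Hist1h2ap (H2A) and Hist1h3h (H3), with medians of 250 to 997 CPM in the 10 lungs and 0.249 to 2.07 CPM elsewhere. Together these 10 members held 38.9% of the members' TPM in the 10 lungs and 22.6% in the other tissues. Their rank is by a mean that lung dominates: the median over members was 585.9 TPM in the 10 lungs and 2.85 TPM elsewhere. That choice favours a larger share in lung, so the difference in share is no separate result.

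Among the families, the linker histone genes had the highest median ratio of lung to other tissues. Such ratios depend on how low a member was outside lung. The median ratio was 880 over members at a median of 1 CPM or less there and 174 over those above 1 CPM. Hist1h1a was at 495 to 608 CPM in the 10 lungs (median 533) and at 0 to 3.05 CPM in the other tissues (median 0.178), a ratio of medians of 3000. Hist1h1d was at 737 to 891 CPM in the 10 lungs (median 776) and at 0.109 to 4.98 CPM in the others (median 0.52). Hist1h1c, the linker gene listed with a polyadenylated transcript, was at 811 to 982 CPM in the 10 lungs (median 839) and at 3.1 to 31.1 CPM in the others (median 9.02), a ratio of 93. Hist1h1b and Hist1h1e were likewise separate, at medians of 385 and 739 CPM in the 10 lungs and 0.416 and 0.864 CPM in the others. By family, the median ratio of lung to other tissues was 925 for H1, 631.5 for H4, 374 for H2A, 361.5 for H2B and 292 for H3, and it was 427 over the 57 members for which a ratio could be formed.

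Some members departed from this gap. Hist2h2be, the H2B gene without the hairpin element, was at 3.69 to 5.61 CPM in the 10 lungs (median 4.6) and at 1.79 to 12.2 CPM in the other tissues (median 4.92), a ratio of 0.935. Hist3h2ba was at 35.5 to 51.1 CPM in the 10 lungs (median 44.6) and at 0.64 to 48.7 CPM in the others (median 15.3). For both, lungs lay within the range of the other libraries or overlapped with it. Hist3h2a, its neighbour in the Hist3 cluster, encodes H2A and was at 111 to 134 CPM in the 10 lungs and 5.56 to 28.5 CPM elsewhere, a ratio of 6.71. Hist1h2bc, listed as polyadenylated, had a ratio of 53.6. In all, the lowest of the 10 lungs lay above the highest of the 52 other libraries for 59 of 64 members, or for 57 of 64 with all 12 lungs, where 5.56% of the 27734 genes with any count did so. The 5 exceptions were Hist2h2be, Hist3h2ba, Hist2h3c1 (up to 0.547 CPM in the 10 lungs) and the testis genes Hist1h2aa and Hist1h2ba (up to 0.208 and 0.197 CPM).

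**Figure D2:**
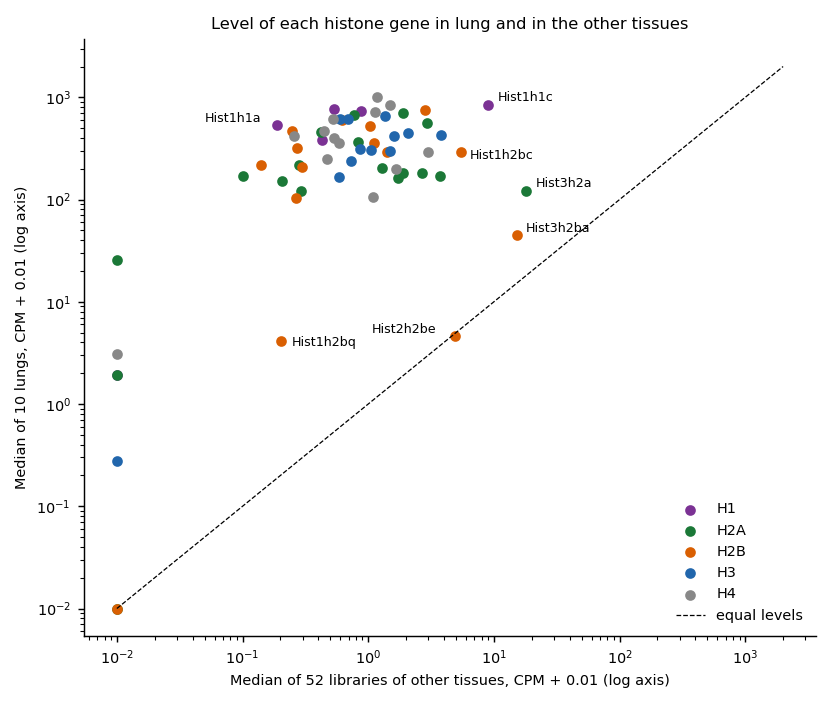
Each point is 1 histone member, with its median over 10 lungs on the vertical axis and its median over 52 libraries of other tissues on the horizontal axis, in CPM plus 0.01 on log axes and coloured by family. Most members lie far on the lung side, while Hist2h2be (4.6 CPM in lung, 4.92 CPM elsewhere) and Hist3h2ba (44.6 and 15.3 CPM) lie closest to equal levels.

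The make-up of the histone RNA, given as shares of TPM, differed too. TPM carries the difference in effective length, whose ratio of the 10 lungs to the other tissues ran from 0.997 to 2.16 over the members. How far it shifted the shares was not tested. Within the member TPM of a library, H4 held a median of 31.4% in the lungs without E5420-07 and E5420-09 and 18.9% in the other tissues, and H1 held 8.0% and 4.1%. H2A held 23.5% in those lungs and 31.4% in the other tissues. The 3 members listed as polyadenylated held 1.8% of the members' TPM in those lungs and 8.47% in the others, and Hist3h2ba was the member with the highest median TPM outside lung (75.4 TPM in the lungs, 65.4 TPM in the other tissues). The 23 members annotated more than 100 bases past the hairpin had a median ratio of lung to other tissues of 522 over the 21 with a ratio, and the 39 with a shorter end had 413 over 34. At least 3 counts were found for 60 to 63 members in a lung and for 41 to 58 members in a library of another tissue.

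The same libraries differed in other RNA without a poly(A) tail. Of 18 small structural RNAs listed, 13 had their lowest of the 10 lungs above the highest of the 52 other libraries. Rn7sk, which restrains the elongation factor P-TEFb, was at 9882 to 12230 CPM in those lungs and 0.168 to 62.4 CPM in the others, and Rmrp, the RNA of RNase MRP, at 1633 to 3040 CPM and 0 to 14.7 CPM. The genes that act on DNA in S phase did not show such a gap. The summed level of 25 S phase genes, such as the Mcm helicase genes and Pcna, was 3050 to 3594 CPM in the lungs without E5420-07 and E5420-09, against 2062 to 4958 CPM in the other tissues, and these ranges overlapped. The study's methods describe a standardised preparation of libraries for the tissues of all lines, without naming the kit or the selection of RNA. The lungs came from 1 line, and their libraries carry another style of code than all others, so lung tissue and this set of libraries cannot be told apart. As in any bulk sample, fewer cells of a type and less RNA per cell cannot be told apart either.

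Within line B2, lung and heart of both genotypes could be compared in a fit across all genes (edgeR's quasi-likelihood test, Benjamini-Hochberg adjusted p under 0.05 over all genes tested). All 61 members tested were higher in lung, against 41.7% of all genes called higher and 38.9% called lower. In the comparison within B2 hearts 30 members passed the filter on low counts, and all of these were higher in lung. Members near 0 in heart, such as Hist1h1a, Hist1h2bn, Hist1h4f, Hist1h4a and Hist1h1b, entered the test through lung. Their direction was set by the filter, so their calls are no support. The median log2 difference, over members of both kinds, was 9.51, and it was 0.06 for all genes. The level of Hist1h1a, a linker histone gene, averaged 584 ± 224 CPM in B2 lungs (SD, n = 12). In B2 hearts it was 0.0704 ± 0.0882 CPM (n = 8), a log2 difference of 12.83 (SE 0.40). Hist1h2bn, Hist1h4f, Hist1h4a and Hist1h1b were higher by 12.67, 11.95, 11.93 and 11.85 on the log2 scale. Hist1h2ao had no count in the 8 hearts, so its fitted 12.73 sets no bound. The smallest gap among the named members belonged to Hist2h2be, at 4.44 ± 0.70 CPM in lungs and 3.17 ± 0.90 CPM in hearts, a log2 difference of 0.48 (SE 0.16, adjusted p = 0.00963). Hist1h1c and Hist1h2bc were in between, at 5.88 (SE 0.32) and 4.78 (SE 0.28). Without E5420-07 and E5420-09 all 61 calls stood in number, with a median of 9.25.

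The RNA of genes for proteins that make and handle histones differed far less between B2 lung and heart. Of 17 genes for the processing and transcription of histone RNA, 12 were higher and 1 lower in lung, with a median log2 difference of 0.71. Of 25 S phase genes 14 were higher and 3 lower (median 0.28), and of 14 genes of G2 and mitosis 8 were higher and 4 lower. The 11 variant histone genes that make polyadenylated RNA in any phase, such as H2afz and H3f3b, were split, with 5 higher and 5 lower. Of the small structural RNAs, 11 of 11 tested were higher in lung, by a median log2 difference of 11.86. Those near 0 outside lung, such as Scarna13 (at most 0.0515 CPM there), entered the test through lung. Their direction was set by the filter, so the count of 11 is no separate result. The part of library preparation in the gap was not tested.

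Face and heart were both sampled in lines B3, B5, B6 and B7. In B3, 35 of 47 members tested were higher in face and 2 lower, where 35.5% of all genes were called higher and 34.1% lower. The median log2 difference was 1.44 for the members and 0.03 for all genes. Within B3 hearts 36 members passed the filter on low counts. Members too low in heart to pass there entered through face, so their direction was set by the filter, and they raise the count and median. How many entered in this way in B6 and B7 was not counted. In the homozygous embryos of B6, 36 of 48 were higher and 2 lower (32.2% and 31.5% of all genes), with a median of 1.75. In those of B7, 19 of 49 were higher and 2 lower (29.4% and 29.9%), with a median of 0.83. In B5, 2 of 50 were higher and 2 lower (20.4% and 26.2%), with a median of 0.35. The count depended on a single library and on the fit. In B6 it was 23 of 49 in place of 38 without the face A7, with 57.0% of all genes called, and in B7 it was 10 of 53 in place of 21 without the heart A2, with 47.7% of all genes called. In a joint fit of all libraries it was 22 of 62 in B6 (44.6% of all genes) and 4 of 62 in B7 (42.3%), all higher in face.

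**Figure D3:**
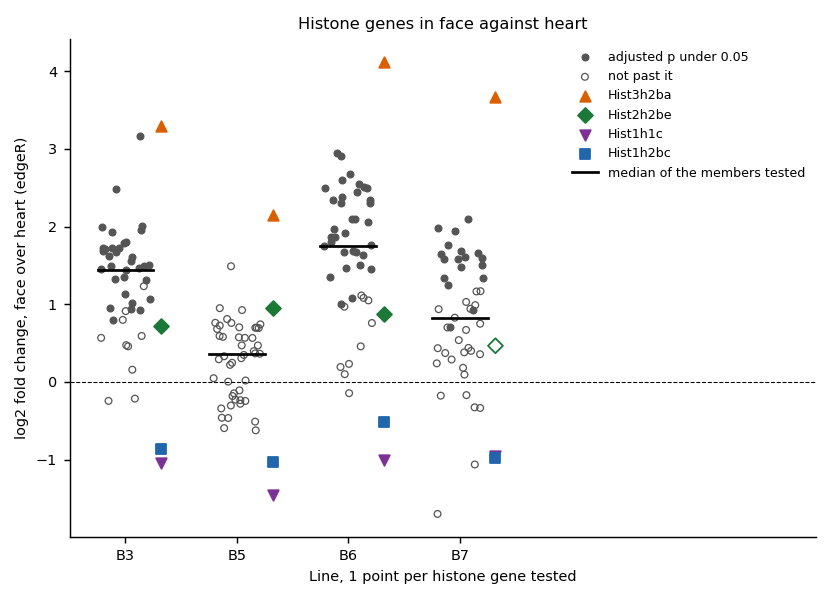
Log2 difference in level between face and heart for each histone member in lines B3, B5, B6 and B7, with filled points for an edgeR adjusted p under 0.05. Most members lie above 0 in B3, B6 and B7 (medians 1.44, 1.75 and 0.83), while Hist1h1c and Hist1h2bc lie below 0 in all 4 lines.

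Hist3h2ba, an H2B gene of the Hist3 cluster, gave the largest difference among the called members in each of the 4 lines. In B3 it was at 21.1, 22.6, 15.2 and 15.8 CPM in faces and at 1.42, 1.21, 1.57 and 3.57 CPM in hearts, a log2 difference of 3.29 (SE 0.34, adjusted p = 4.54e-05 in edgeR). All faces lay above all hearts. In B6 the difference was 4.12, in B7 3.67 and in B5 2.14 (SE 0.70, adjusted p = 0.0387). The B5 hearts were at 15.3 CPM in A21, the library with raised face markers, and at 1.11, 3.26 and 3.01 CPM in the other 3, against 20.7 to 27.7 CPM in B5 faces.

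Among the other members higher in face were genes of every family. In B3 the 35 were 10 H4, 10 H3, 7 H2A, 5 H2B and 3 H1 genes. The H4 gene Hist2h4 was at 3.53, 2.89, 3.97 and 3.75 CPM in B3 faces and at 1.05, 0.252, 1.33 and 1.03 CPM in B3 hearts, a log2 difference of 2.00 (SE 0.36, adjusted p = 0.000963 in edgeR). The H2A gene Hist1h2ag was at 5.48 ± 0.83 CPM in faces and 1.46 ± 0.69 CPM in hearts (SD, n = 4 each), a difference of 1.95. For Hist2h4 and Hist1h2ag faces and hearts did not overlap. Of the linker genes, Hist1h1e was higher by 1.72, Hist1h1d by 1.47 and Hist1h1b by 1.01. Hist1h2bl, Hist1h2ab and Hist1h4f, at under 1 CPM in most of these libraries, were higher by 3.16, 2.49 and 2.00. Hist1h1d, Hist1h1b, Hist1h2bl, Hist1h2ab and Hist1h4f did not pass the filter within B3 hearts, so their direction was set by entry through face. In B6 the next largest differences after Hist3h2ba were those of Hist1h4j (2.94), Hist1h2ai (2.91), Hist1h2ag (2.67), Hist1h1b (2.60) and Hist1h3h (2.55). In B7 they were those of Hist1h3b (2.10), Hist1h3i (1.98), Hist1h4a (1.94), Hist1h2ab (1.76) and Hist1h4k (1.68).

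Both genes that were lower in face were listed with polyadenylated RNA. Hist1h1c was at 8.26, 6.98, 8.99 and 7.1 CPM in B3 faces and at 16.5, 21.2, 16.3 and 12.6 CPM in B3 hearts, a log2 difference of -1.05 (SE 0.16, adjusted p = 0.000392 in edgeR). It was also lower in face in B5 (-1.46), B6 (-1.0) and B7 (-0.95). Hist1h2bc was at 4.22 ± 0.93 CPM in B3 faces and 7.82 ± 0.93 CPM in B3 hearts (SD, n = 4 each), a difference of -0.86, and differences of -1.04, -0.52 and -0.98 were found in B5, B6 and B7. The third listed gene, Hist2h2be, went the other way. It was at 6.63 ± 0.53 CPM in B3 faces and 4.13 ± 0.61 CPM in B3 hearts, a difference of 0.71, and was higher by 0.95 in B5 and 0.87 in B6, while in B7 its 0.46 had an adjusted p of 0.228.

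**Figure D4:**
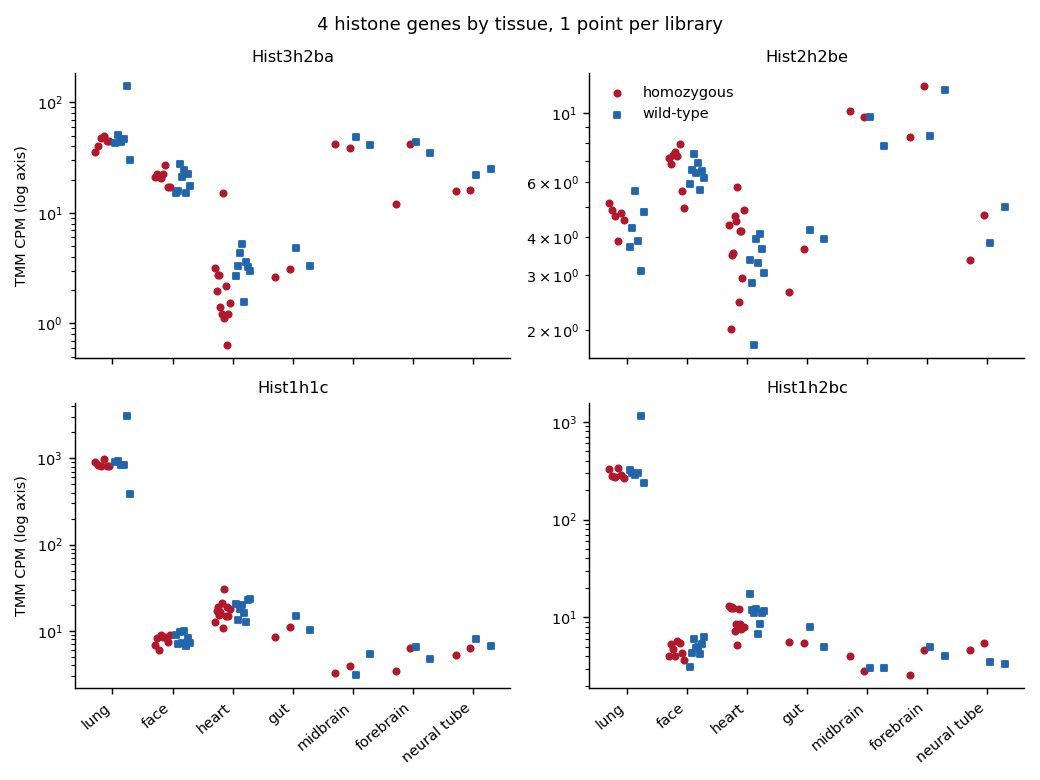
Level of Hist3h2ba, Hist2h2be, Hist1h1c and Hist1h2bc in CPM on log axes, with 1 point per library grouped by tissue. By median, Hist3h2ba is lowest in heart and gut and high in lung, midbrain and forebrain, Hist2h2be is highest in midbrain and forebrain, and outside lung Hist1h1c and Hist1h2bc are highest in heart.

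Other genes tied to cell division also differed between face and heart. Of the 25 S phase genes 21 were higher in face in B3, 15 in B5, 15 in B6 and 10 in B7, with 1, 1, 0 and 1 lower. Of the 11 variant histone genes 10, 9, 10 and 9 were higher in these lines and none lower, and of 13 histone chaperone genes 11, 7, 10 and 9 were higher. The summed level of the small structural RNAs was 348 to 435 CPM in B3 faces and 223 to 353 CPM in B3 hearts, and 248 to 698 CPM in B5 faces and 454 to 899 CPM in B5 hearts. In B6 it was 469 and 545 CPM in the homozygous faces and 404 and 443 CPM in the hearts. Its part in the differences between face and heart was not tested.

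The hearts of B3 and B5 differed in their summed histone level more than the faces did. In B3 the sum was 155 and 160 CPM in homozygous and 142 and 155 CPM in wild-type faces, and 86.9 and 92.5 CPM in homozygous and 89.4 and 91.8 CPM in wild-type hearts. In B5 it was 156 and 165 CPM in homozygous and 127 and 204 CPM in wild-type faces, and 144 and 151 CPM in homozygous and 119 and 156 CPM in wild-type hearts. B5 hearts thus lay above B3 hearts, and B5 faces spanned the B3 faces. The difference between the lines was tested as an interaction of line and tissue across all genes. None of 58 members passed in edgeR, where 0.259% of all genes did, although 16 had an unadjusted p under 0.05 and 52 were on the side of a larger difference in B3. Without the B5 heart A21 the H4 gene Hist1h4k, singled out after its value was seen, passed with 2.1 on the log2 scale (SE 0.54, adjusted p = 0.0467), with 4.84% of all genes called. Between B3 hearts and B5 hearts directly, 0 of 49 members and 0% of all genes were called in edgeR, 24 members had an unadjusted p under 0.05 and 47 lay lower in B3. For either fit, the shares of all genes at that unadjusted level and on that side are not given. These counts are therefore not read as a difference between the lines. DESeq2 was not run for these fits. Without A21 the B5 count between face and heart was 12 of 53 members in place of 4, with 8 higher and 4 lower, while 61.4% of all genes were called in that fit. It was 2 without the face A19 or the heart A24, and 1 without A18, A20 or A23, with 24.9% to 30.7% of all genes called.

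Gut and midbrain of line B4 shared no direction. Of 32 members tested 4 were higher in gut and 5 lower, where 34.9% of all genes were called higher and 31.9% lower in edgeR. Hist3h2ba was at 2.61, 3.1, 4.78 and 3.34 CPM in guts and at 41.8, 38.7, 48.7 and 40.8 CPM in midbrains, a log2 difference of -3.63 (SE 0.15, adjusted p = 3.99e-08). Its neighbour Hist3h2a was at 7.01 ± 2.2 CPM in guts and 25.1 ± 4.03 CPM in midbrains (SD, n = 4 each), a difference of -1.85. Hist2h2be was at 3.62 ± 0.684 CPM in guts and 9.35 ± 1.03 CPM in midbrains, a difference of -1.37. The gut and midbrain libraries did not overlap for any of these. Also lower in gut were Hist2h3c2 (-3.44) and Hist2h2aa2 (-2.12), whose transcripts share 61.6% and all of their 100-base windows with other genes. Hist1h1c was higher in gut, at 11.3 ± 2.75 CPM against 3.93 ± 1.03 CPM in midbrains, a difference of 1.52 (SE 0.21, adjusted p = 0.000153), as were Hist1h2bc (0.89), Hist1h2ae (0.72) and Hist1h4i (0.67). Of the 25 S phase genes 9 were higher in gut and 1 lower.

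In line B8, 1 of 36 members was higher in forebrain than in neural tube and 3 were lower, where 16.7% of all genes were called higher and 19.3% lower in edgeR. Hist2h2be was at 8.36, 12.2, 8.45 and 11.9 CPM in forebrains and at 3.37, 4.69, 3.83 and 4.99 CPM in neural tubes, a log2 difference of 1.25 (SE 0.20, adjusted p = 0.000751). The forebrains all lay above the neural tubes. Hist1h2br, Hist1h3e and Hist2h3b were lower in forebrain (-2.10, -1.64 and -1.21 on the log2 scale), and the neural tube A35 was the highest library for each. The count of 4 was 2 without A30, A32, A34 or A35, with 28% to 29.6% of all genes called, and 8 of 38 without A33, with 33.6%. The S phase genes ran the other way from these 3 members, with 21 of 25 higher in forebrain and 1 lower.

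Whether the deletion of a boundary went with a change in histone RNA was asked in 14 comparisons of homozygous with wild-type libraries. No member passed in any of them in edgeR. The background was as low, with 0.0% of all genes called in B2 lung, B2 heart, B3 heart, B4 gut, B5 face, B5 heart, B8 forebrain, B6 heart and B7 heart, 0.0131% in B3 face, 0.00677% in B4 midbrain, 0.0723% in B6 face, 0.0329% in B7 face and 0.0132% in B8 neural tube. At an unadjusted p under 0.05 there were 2 of 61 members tested in B2 lung, 1 of 30 in B2 heart, 3 of 51 in B3 face and 4 of 36 in B3 heart. There were 0 of 34 in B4 gut, 3 of 36 in B4 midbrain, 4 of 53 in B5 face and 0 of 49 in B5 heart. There were 4 of 50 in B6 face, 6 of 53 in B7 face, 3 of 36 in B8 forebrain and 9 of 36 in B8 neural tube. In B6 heart it was 8 of 46 and in B7 heart 2 of 47. The share of all genes at that unadjusted level is not given here, so these counts are not read as results about the members. DESeq2 called 0 members in 13 comparisons and 1 in B2 lung. Medians of the log2 differences over the members ran from -0.60 in B6 heart to 0.56 in B8 neural tube. For B6 heart and B7 heart, set against wild-type hearts of other lines, line and genotype cannot be told apart.

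**Figure D5:**
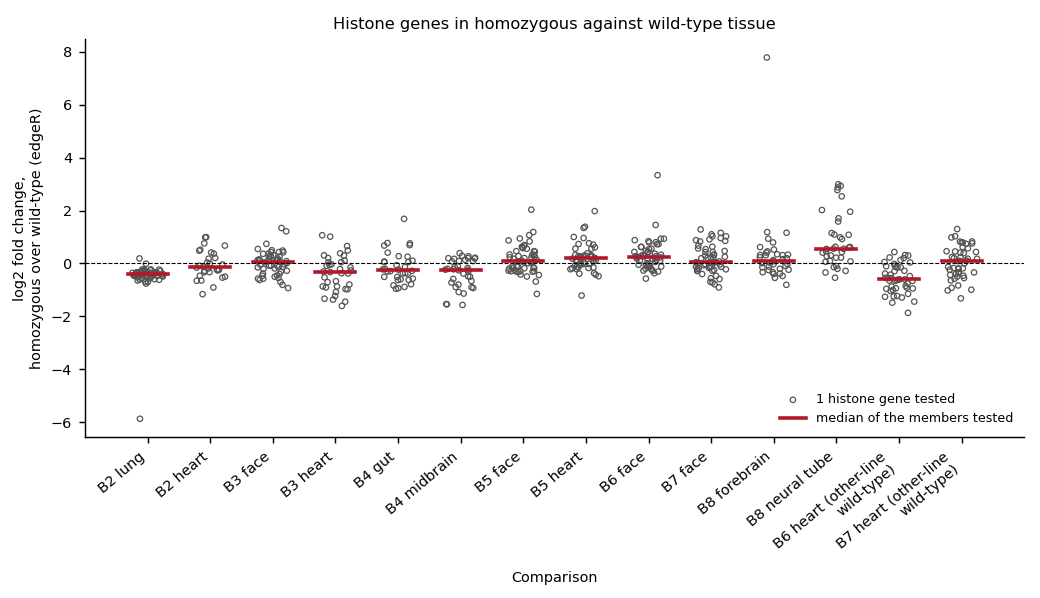
Log2 difference between homozygous and wild-type libraries for each histone member tested in 14 comparisons, with the median of each comparison. No point passed an edgeR adjusted p of 0.05, and the medians lie between -0.60 (B6 heart) and 0.56 (B8 neural tube). B6 and B7 hearts are set against wild-type hearts of other lines, so line and genotype are mixed there.

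In B2 lung, 60 of 61 members lay below 0, with a median log2 difference of -0.40. The homozygous lungs had a summed 20721 to 24160 CPM with a median of 21588, and the wild-type lungs 13721 to 78922 CPM with a median of 22367, so that the wild-type lungs spanned the homozygous ones. Without E5420-07 and E5420-09, both wild-type, the median was -0.03. The member called by DESeq2 was Hist1h2ao (log2 difference -6.01, adjusted p = 0.00955), which edgeR gave -5.87 and an adjusted p of 0.89. It was at 0.8 to 2.4 CPM in 10 lungs and at 139 CPM in E5420-07 and 473 CPM in E5420-09. Hist1h2ap, with which it shares 92.7% of its windows, was at 136 CPM in E5420-09 and 585 to 804 CPM in the 10 lungs. A test of whether the deletion acted differently in B2 lung and B2 heart called 0 of 62 members and 0% of all genes in edgeR, with 2 members at an unadjusted p under 0.05.

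The B8 neural tube had the highest median among the 14 comparisons, and there a single library carried it. The sum of all members was 85.9 and 207 CPM in the homozygous neural tubes A33 and A35, and 99.9 and 106 CPM in the wild-type ones. Hist1h4h was at 0.762 CPM in A33 and 9.00 CPM in A35, against 0.436 and 0.809 CPM in wild-type neural tubes. Hist1h1e, a linker gene, was at 0.0802 CPM in A33 and 4.69 CPM in A35, against 0.291 and 0.225 CPM. A35 was thus above the other 3 neural tubes for both. The same library had 19.5 CPM of Rn7sk against 0.70 to 1.3 CPM in the other 3, and 111 CPM of the small structural RNAs against 20.3 to 42.6 CPM. Without A33, 16 of 55 members were called in edgeR, where 0.301% of all genes were. All 16 were higher in A35, then the lone homozygous library, whose spread was assumed to be that of the wild-type neural tubes. Hist3h2ba moved the other way, at 15.9 and 16.3 CPM in homozygous and 21.9 and 24.7 CPM in wild-type neural tubes, with a log2 difference of -0.54 (unadjusted p = 0.00404 and adjusted p = 0.419 in edgeR, and adjusted p = 0.0447 with no filter on low counts).

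Some single members had low unadjusted p in other comparisons and are named because their values were seen. In B3 face, Hist3h2ba was at 21.1 and 22.6 CPM in homozygous and 15.2 and 15.8 CPM in wild-type faces, a log2 difference of 0.49 (SE 0.10, adjusted p = 0.503 in edgeR, and 0.00711 with no filter on low counts). In B2 heart, Hist2h2aa2 was at 2.29 to 4.19 CPM in homozygous and 4.43 to 8.44 CPM in wild-type hearts, a difference of -1.16 (adjusted p = 0.867). Neither pair of groups overlapped, and neither gene passed with the filter in place. The forebrain A29, homozygous for the B8 deletion, had 12.1 CPM of Hist3h2ba, against 42.3 CPM in the other homozygous forebrain and 43.5 and 35.2 CPM in wild-type ones. In the comparisons other than B8 neural tube, where leaving out a library gave calls among the members, it did so among all genes as well. Without A22 in B5 heart, 2 of 54 members and 5.74% of all genes were called, without A27 in B6 face 2 of 56 and 1.91%, and without A5 there 1 of 56 and 2.54%. Without A1 in B7 face it was 2 of 53 and 1.66%, and without A31 in B8 forebrain 1 of 42 and 2.13%.

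Wild-type embryos of different lines were compared in the 2 tissues that several lines share. In hearts, 2 of 37 members were higher in B2 than in B3 and B5 and 6 were lower, where 31.9% of all genes were called higher and 30.6% lower in edgeR. Hist2h4 was at 0.0947 ± 0.0471 CPM in B2 hearts and 1.73 ± 0.705 CPM in B3 and B5 hearts (SD, n = 4 each), a log2 difference of -4.01 (SE 0.50, adjusted p = 4.55e-05). Hist1h1e, Hist2h3b, Hist1h4j, Hist1h3i and Hist1h4n were also lower in B2, with log2 differences of -2.20, -1.76, -1.74, -1.28 and -1.02. Hist3h2a was higher in B2, at 26.2 ± 0.717 CPM against 14.6 ± 1.86 CPM, a difference of 0.92, as was Hist1h2bc (0.54). The small structural RNAs differed between the same hearts, with 4 of 4 tested lower in B2, and their part was not tested. The count of 8 was 14 of 41 without the B2 heart A60, with 59% of all genes called in that fit. In faces, 0 of 50 members differed between B6 and B7 on one side and B3 and B5 on the other, with 0.0% of all genes called higher and 0.0% lower in edgeR, 2 members at an unadjusted p under 0.05 and 0 called by DESeq2.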

How the data were processed

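Total RNA was isolated by the authors from tissue of embryonic day 11.5. Libraries made from it, by a selection of RNA that is not given, were sequenced as paired reads. The reads were processed with the ENCODE pipeline, that is STAR alignment to mm10 and RSEM with a GENCODE annotation. The deposited tables give 69690 entries per library as RSEM expected counts and as TPM, which the authors scaled to gene length and library total. Expected counts were rounded. Members and lists were chosen with earlier results of these data known. Hi-C samples were not analysed here, and 3 members of GENCODE M21 (Hist1h2bh, Hist1h2bm, Hist2h2bb) were not analysed here.

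Counts were tested with edgeR 4.0.16 in R 4.3.3 (filterByExpr, TMM, quasi-likelihood test, Benjamini-Hochberg adjustment over all genes tested, call at 0.05), and DESeq2 1.42.0 was run as an alternative. Fits used the groups compared, with genotype as a covariate between tissues. Other alternatives were other size factors, no filter, one fit over all 64 libraries, fits without each library in turn, and for lung the embryo code and sex. Interactions of line or tissue, and fits without A21, were chosen after seeing the data. Members named in the text were the 10 with the highest mean TPM, Hist1h1a to Hist1h1e, the 3 listed as polyadenylated, those shown by sequence, and up to 6 called members in each direction with the largest difference per comparison. Fits were tested on simulated data with 200 changed genes. Totals of 8391553 to 31793441 counts set the precision: with a floor of 3 counts, low members outside lung were near the limit of detection. The labels do not say whether replicates came from separate litters, so p-values measure only the spread between these samples.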

Additional observations from a re-analysis of the deposited data

Results flagged for a closer look

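In the groups of 4 to 10 libraries, B2 lung and B2 heart of either genotype, 76 values were tested for a library that stood apart from the rest by Dixon's criterion, which chance meets in about 1 in 20, and 22 did so.

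In the wild-type lungs, E5420-07 stood above the other 5 for each of the 10 most abundant members and for 6 other members. Among the H4 genes it had 3508 CPM of Hist1h4n, 2707 CPM of Hist1h4d, 3260 CPM of Hist1h4h, 1290 CPM of Hist1h4k, 1649 CPM of Hist1h4f and 1549 CPM of Hist1h4c. Among the H2A, H2B and H3 genes it had 2199 CPM of Hist1h2ap, 2481 CPM of Hist1h2bk, 2067 CPM of Hist1h2bg, 1134 CPM of Hist1h2bc and 2145 CPM of Hist1h3h. Of the linker genes it had 1274 CPM of Hist1h1a, 1519 CPM of Hist1h1b, 3047 CPM of Hist1h1c, 2793 CPM of Hist1h1d and 1913 CPM of Hist1h1e. On the TPM scale E5420-07 was nearer to the others, with 3843 TPM of Hist1h4n against 2406 to 2993 TPM in the wild-type lungs other than E5420-09, and a summed 64153 TPM of all members against 45970 to 53923 TPM. The wild-type lung E5420-09 stood below the other 5 in summed member TPM, at 7997 TPM against 45970 to 64153 TPM.

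In the homozygous hearts, A54 stood above the others for Hist1h4f (0.435 CPM, against 0 to 0.0515 CPM) and Hist1h1e (0.489 CPM, against 0.0515 to 0.109 CPM). In the wild-type hearts, A60 was the one library with counts of Hist1h4k (0.105 CPM) and A56 the one with counts of Hist1h1a (0.114 CPM), and A59 stood below the others for Hist1h1d (0.179 CPM, against 0.512 to 0.577 CPM).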

How the results depend on the processing

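Among the alternatives tried for counts and levels, 30 changed a count of called members by over 1.5 times and 224 were taken as the same. The 224 include the ratio of lung to other tissues as TPM (86.8) and as a share of the library total (155). Those ratios, set beside 185 in CPM, were judged by the spread of the lungs and not by 1.5 times. DESeq2 called 1 in B2 lung and 8 between B5 face and heart. With no filter on low counts there were 3 calls of 59 in B3 face (1.96% of all genes), 4 of 59 in B6 face (2.93%), 3 of 61 in B7 face (2.07%), 19 of 59 in B8 neural tube (3.13%) and 15 of 59 between B8 forebrain and neural tube (26.5%). A joint fit of all libraries gave 1 in B6 heart, 22 between B6 face and heart and 4 between B7 face and heart. Leaving out each library gave 0 to 2 in B5 heart, B6 face and B7 face, 0 to 1 in B8 forebrain, 0 to 16 in B8 neural tube, 1 to 12 between B5 face and heart, 23 to 40 in B6 and 10 to 17 in B7, 2 to 8 between B8 forebrain and neural tube, and 6 to 14 among wild-type hearts. The cause was not tested. Leaving out each library, the B3 count between face and heart was 32 to 35 and the B2 count between lung and heart 61, and that B2 count was 60 with DESeq2 and 62 with no filter. A lone library left in a group was assumed to vary like the others. Over the members named for a comparison and tested in it, 859 refits kept their side of the threshold, 86 no longer passed, 6 newly passed and 0 reversed. The 6 were Hist1h2ao in B2 lung with DESeq2, Hist3h2ba in B3 face and B8 neural tube with no filter, Hist1h4h in B8 neural tube with no filter and without A33, and Hist1h1c between B8 forebrain and neural tube without A31. Linker genes too low to be tested in B8 neural tube, such as Hist1h1a and Hist1h1e, were also called without A33 and with no filter. In B2 lung, where homozygous and wild-type libraries share the embryo codes E5403, E5406 and E5420, a fit with the code as a block called 0 of 61 members. In the other comparisons no paired analysis was possible because the groups compared share no numbers in the labels. Depth limits members outside lung, many at under 1 CPM.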
